A study of Mus musculus with 10 samples.

Results

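The genes described here mark nerve tissue: Tubb3, Stmn2, Gap43 and Ncam1 as neuronal markers, and Fabp7, Sox10, S100b and Mbp as markers of Schwann cells and other glia. Osteoblasts build bone matrix, and their RNA was hybridised to 10 Affymetrix arrays with 45101 probe sets, which cover 18194 genes by a probe set of their own. Every probe set that the platform annotation assigns to 1 of these 8 genes alone was taken, which gave 25 probe sets, 11 for the neuronal and 14 for the glial genes. Fabp7 belongs to the group partly because it was seen to be higher with active β-catenin than without FoxO1, so levels in that comparison are given as a description, with no test.

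The labels name 4 wild-type samples, 3 with constitutively expressed β-catenin in osteoblasts (β-catenin active), and 3 with FoxO1 deleted in osteoblasts (FoxO1 deleted). All 10 came from mice aged 2 to 3 days, with the background strain written C5BL6 and the sex recorded as not determined. Neither the promoter driving each osteoblast-specific change nor whether a sample is 1 animal, a pool or a culture is stated in the sources used here. P-values therefore reflect no more than the spread of these samples, part of which may be technical.

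Bone is innervated by sensory and sympathetic fibres, whose cell bodies lie outside it, so bone tissue holds axons and the Schwann cells that wrap them but few neuronal nuclei. Schwann cells arise from the neural crest, which Sox10, a transcription factor, marks, and those around large axons make myelin with Mbp, myelin basic protein. Several of the markers are not restricted to nerve: Ncam1 is a cell adhesion molecule also found in mesenchyme, S100b is a calcium-binding protein also made by chondrocytes, and Fabp7 is the brain fatty acid binding protein of radial glia and early Schwann cells. β-catenin carries the canonical Wnt signal to TCF/LEF factors, and FoxO1 is a forkhead transcription factor restrained by insulin signalling that also binds β-catenin.

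All levels below are log2 MAS5 signal, and a difference of 1 is a 2-fold change. A probe set entered the test when at least 3 arrays exceeded 7.15, the median of the whole table, and for each of 11357 genes the brightest such probe set on average was used. Of the members' 25 probe sets, 17 passed, 9 neuronal and 8 glial. All 3 Sox10 probe sets, 3 of 8 for Mbp and 2 of 7 for Ncam1 did not. The test was limma's moderated test over all 10 arrays, with Benjamini-Hochberg adjustment over all genes and a threshold of 0.05. In bulk RNA, fewer cells of a type and less RNA per cell cannot be told apart.

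The group names are those of the labels. Foxo1 differed by -0.17 in the FoxO1 deleted arrays (limma adjusted p 0.706), with 9.80, 10.13 and 9.67 there against 9.93 to 10.09 in wild type, and 0.05 and 0.10 in its other probe sets. Ctnnb1, the β-catenin gene, differed by -0.03 in the β-catenin active arrays, whose 3 values lay within the wild-type range of 14.35 to 14.56 (limma adjusted p 0.941). Its other probe sets differed by -0.28 and -0.34, and in the latter the β-catenin active arrays, at 12.14, 11.84 and 12.02, all lay below the wild-type range of 12.30 to 12.37. Whether these probe sets lie inside the altered stretches is not stated in the sources used here. The wild-type arrays were not evenly spaced, which touches several members. Over the genes tested, wild type 1 correlated with wild type 2 at 0.990 and wild type 3 with wild type 4 at 0.989, against 0.971 to 0.973 between these pairs. Among the 17 kept probe sets of the members, both arrays of the first pair lay above both of the second in 10 and below both in 2. Signal of Xist, the RNA that coats the inactive X chromosome in females, was 14.05 or above in wild type 3 and 4 and FoxO1 deleted 2 and 3, and 8.96 or below in the other 6 arrays, so no β-catenin active array was high. RNA quality, read as signal at the 3' minus the 5' end of Actb, spanned 0.60 to 0.77 for wild type, 0.85 to 0.88 for active β-catenin and 0.80 to 0.99 for FoxO1 deletion. The part of either in the members' values was not tested beyond the settings given in the closing section. Of 9 osteoblast markers 6 were measured, with wild-type means of 14.42 for Dmp1 and 12.10 for Alpl, genes of mineralising matrix, and 0 passed the limma test in any comparison (1 had an unadjusted p under 0.05, without FoxO1).

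The neuronal members were not called in any comparison with wild type. The lowest array was a FoxO1 deleted one for Tubb3 and Stmn2, and a β-catenin active one for Gap43 and Ncam1. With FoxO1 deleted, 0 of 4 passed the limma test (2 had an unadjusted p under 0.05), all 4 differences were negative with a median of -0.95, and for 3 genes every FoxO1 deleted array lay below every wild-type array. Over all genes tested, 0.0264% were called in that comparison, 7.83% had an unadjusted p under 0.05, 4.44% lay wholly below wild type, and the median difference was 0.00. With active β-catenin, 0 of 4 passed (3 had an unadjusted p under 0.05), all 4 differences were negative with a median of -0.70 (that of Ncam1 was near 0 and turned positive with quantile scaling), and 0 were separated from wild type. There 0.784% of all genes were called, 12.1% had an unadjusted p under 0.05, 6.76% lay wholly below and the median was 0.01. Both comparisons share the wild-type arrays, so their like signs are not independent of each other.

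Tubb3, the neuron-specific β-tubulin of axonal microtubules, gave 8.47, 8.65, 7.77 and 7.63 in the wild-type arrays, 8.16, 6.47 and 6.81 with active β-catenin, and 7.17, 6.59 and 5.97 without FoxO1. All 3 FoxO1 deleted arrays lay below the lowest wild-type array, while the β-catenin active arrays overlapped both other groups. The difference for FoxO1 deleted minus wild type was -1.55 ± 0.43 (SE, n = 3 and 4), with a limma adjusted p of 0.431. For β-catenin active minus wild type it was -0.98 ± 0.43, adjusted p 0.388 by limma. Leaving out β-catenin active 1 gave -1.49, and leaving out β-catenin active 2 gave -0.65.

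Stmn2, the growth-cone protein that destabilises microtubules, had 2 probe sets. The brighter gave 8.67, 8.54, 7.30 and 7.57 in the wild-type arrays, 7.34, 7.05 and 7.41 with active β-catenin, and 6.96, 6.54 and 6.49 without FoxO1. The FoxO1 deleted arrays again lay below every wild-type array, and also below every β-catenin active array. The difference for FoxO1 deleted minus wild type was -1.36 ± 0.33 (SE) with a limma adjusted p of 0.379, and for β-catenin active minus wild type -0.75 ± 0.33 with 0.386. The dimmer probe set had the same signs, -1.93 and -1.14, but its arrays overlapped between groups because wild type 3 and 4 were at 6.35 and 7.19. Wild type 1 and 2 carried the highest Tubb3 and Stmn2 levels, and the profiles of the genes were close: the root mean square difference between centred log2 values of Tubb3 and Stmn2 over the 10 arrays was 0.44 for the brighter Stmn2 probe set and 0.69 for the dimmer.

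Gap43, a membrane protein of growing axons, varied little in wild type, with 9.26, 9.28, 9.41 and 9.28. It gave 7.75, 9.31 and 8.92 with active β-catenin and 9.02, 8.61 and 8.66 without FoxO1. The FoxO1 deleted arrays lay below wild type by a mean of -0.54 ± 0.29 (SE), with a limma adjusted p of 0.654. The β-catenin active difference of -0.65 ± 0.29, adjusted p 0.396 by limma, was -0.19 without β-catenin active 1.

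Ncam1, the neural cell adhesion molecule, lay within a narrow range in all 10 arrays. Its brightest probe set gave 11.42, 11.36, 11.22 and 11.38 in the wild-type arrays, 11.44, 11.17 and 11.42 with active β-catenin, and 11.39, 11.19 and 11.23 without FoxO1, and the groups overlapped fully. Differences from wild type were 0.00 ± 0.09 (SE) with active β-catenin and -0.08 ± 0.09 without FoxO1, with limma adjusted p of 0.998 and 0.864. Its other 4 kept probe sets lay between -0.28 and 0.08 for FoxO1 deleted minus wild type.

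**Figure D1:**
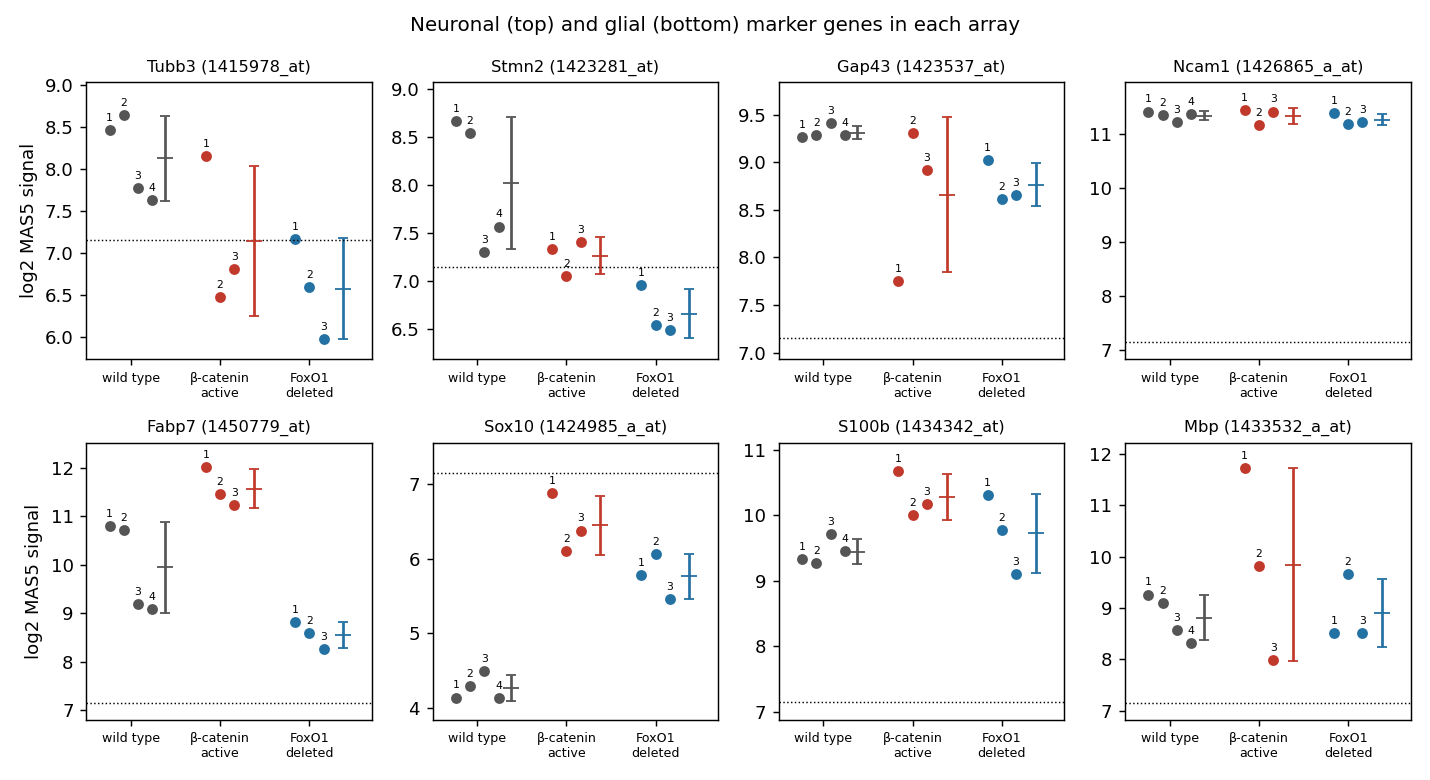
Log2 MAS5 signal of the 8 members, 1 panel per gene, with points for arrays numbered by replicate and bars for the mean ± SD of wild type (n = 4), β-catenin active (n = 3) and FoxO1 deleted (n = 3). The dotted line is the table's median of 7.15, and the Sox10 probe set shown did not pass the filter. Fabp7 shows 3 separate groups while Ncam1 shows full overlap.

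Set side by side as a description, β-catenin active minus FoxO1 deleted was 0.57 for Tubb3, 0.60 for Stmn2, -0.10 for Gap43 and 0.07 for Ncam1. Of all genes tested, 0.669% were called in that comparison, and nothing is read from it for the members.

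Other neuronal genes were mostly near or under the table's median. Of 35 listed, 10 were in the fit, 22 did not pass the filter, and 3 were not analysed here. Of the 22, 11 had no value above the median in any array. None of the 10 was called by limma, though 3 for active β-catenin and 5 for FoxO1 deleted had an unadjusted p under 0.05. Over all genes tested those shares were 12.1% and 7.83%. Of the 10, 8 were negative and 2 positive in each comparison with wild type. The median was -0.53 for active β-catenin and -0.72 for FoxO1 deleted, where 3 lay wholly below wild type, against 4.44% of all genes. Dcx, a microtubule protein of migrating neurons, gave 8.77, 8.73, 7.63 and 7.70 in the wild-type arrays, 5.90, 8.07 and 6.79 with active β-catenin, and 6.27, 6.24 and 6.47 without FoxO1. Its FoxO1 deleted arrays all lay below wild type and under the table's median, at -1.88 ± 0.46 (SE) with a limma adjusted p of 0.379. Tubb2b, a β-tubulin of developing neurons, gave 11.07, 11.14, 10.50 and 10.70 in the wild-type arrays, 9.27, 10.32 and 10.11 with active β-catenin, and 10.36, 10.13 and 9.63 without FoxO1. Both altered genotypes lay below every wild-type array for Tubb2b, at -0.95 ± 0.26 and -0.81 ± 0.26, with limma adjusted p of 0.138 and 0.50. Stmn3, a relative of Stmn2 chosen after its values were seen, also split by the wild-type pairs, with 10.06 and 10.05 in wild type 1 and 2 against 7.54 and 7.73 in wild type 3 and 4. Its other 6 arrays lay between 7.11 and 8.14.

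Of the glial members, 3 were in the fit. All 3 were higher on average with active β-catenin than in wild type, with a median difference of 1.03. That median was the Mbp difference, which fell to 0.08 without β-catenin active 1. For Fabp7 and S100b every β-catenin active array lay above every wild-type array. None of the 3 passed the limma test in that comparison, and 2 had an unadjusted p under 0.05. Among all genes, 0.784% were called there, 12.1% had an unadjusted p under 0.05 and 7.27% lay wholly above wild type. With FoxO1 deleted, 0 of 3 passed and 1 had an unadjusted p under 0.05, 2 differences were positive and 1 negative, and of the 3 Fabp7 alone lay wholly below wild type. Over all genes those shares were 0.0264% called, 7.83% at an unadjusted p under 0.05 and 4.44% wholly below. Fabp7 is among the genes counted at an unadjusted p under 0.05 and apart from wild type in both comparisons. Both share arrays with the comparison used to choose it, so its part in these counts is a description and tests nothing.

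Fabp7, which carries long-chain fatty acids in the cytoplasm, was at different levels in the 3 genotypes. It gave 10.79, 10.71, 9.20 and 9.08 in the wild-type arrays, 12.01, 11.46 and 11.22 with active β-catenin, and 8.81, 8.59 and 8.26 without FoxO1. All β-catenin active arrays were above all wild-type arrays, and all FoxO1 deleted arrays below them. Mean levels were 9.94 ± 0.93 (SD, n = 4), 11.56 ± 0.41 (n = 3) and 8.55 ± 0.28 (n = 3). The difference for β-catenin active minus wild type was 1.62 ± 0.41 (SE), or 3.07-fold, with a limma adjusted p of 0.108. For FoxO1 deleted minus wild type it was -1.39 ± 0.41, a ratio of 0.381, with an adjusted p of 0.477 by limma. Neither passed the threshold. Both share arrays with the comparison used to choose Fabp7, β-catenin active minus FoxO1 deleted, in which it was 3.01 higher, or 8.06-fold.

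The wild-type spread of Fabp7 followed the array pairs, and these coincide with Xist signal. Among the 6 low-Xist arrays Fabp7 averaged 10.75 in wild type (n = 2), 11.56 with active β-catenin (n = 3) and 8.81 in the single FoxO1 deleted array. In the 4 high-Xist arrays it averaged 9.14 in wild type and 8.43 without FoxO1 (n = 2 each). The low-Xist differences were 0.81 for β-catenin active minus wild type and -1.94 for FoxO1 deleted minus wild type, and the high-Xist difference for FoxO1 deleted minus wild type was -0.72. With a term for Xist signal, β-catenin active minus wild type was 0.85 (limma adjusted p 0.454), and with Xist class as a block 1.06 (limma adjusted p 0.175). Averaging the similar wild-type arrays gave a limma adjusted p of 0.377. Under all alternative settings FoxO1 deleted minus wild type lay between -1.68 and -1.11. The part of whatever separates these arrays in the Fabp7 result was not tested further.

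The upstream sequences of Fabp7 and S100b are shown because these are the glial members whose β-catenin active arrays lay apart from wild type. Each is the 250 bases before the annotated start, from RefSeq's GRCm38.p6, which listed such a sequence for 3 of the 8 members (Tubb3 is the other). Fabp7 is at chr10:57784673-57784922 and S100b at chr10:76253586-76253835, both on the plus strand. Capitals mark matches, on either strand, to 5 short motifs: CTTTGA (TCF/LEF), TGGGAA (RBPJ, the Notch pathway's DNA-binding factor), the CCAAT box by its own letters, the TATA box by TATAA, and ACAAT (SOX factors).
Fabp7: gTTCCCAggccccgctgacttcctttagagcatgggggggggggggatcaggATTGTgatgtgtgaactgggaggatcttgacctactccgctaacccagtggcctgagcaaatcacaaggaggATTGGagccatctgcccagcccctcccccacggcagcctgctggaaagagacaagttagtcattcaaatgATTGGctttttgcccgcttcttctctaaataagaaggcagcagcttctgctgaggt
S100b: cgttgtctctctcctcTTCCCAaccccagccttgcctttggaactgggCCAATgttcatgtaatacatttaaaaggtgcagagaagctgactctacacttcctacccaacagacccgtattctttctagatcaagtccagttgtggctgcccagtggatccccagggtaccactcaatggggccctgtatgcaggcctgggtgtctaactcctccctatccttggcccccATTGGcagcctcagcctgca

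Fabp7 held the RBPJ letters at -249, the CCAAT letters at -126 and -56 and the SOX letters at -198, all on the minus strand and counted from the start. S100b held the RBPJ letters at -234 on the minus strand and the CCAAT letters at -202 on the plus and -20 on the minus strand. No match overlapped another in either sequence. Of 27025 upstream sequences of the same length, 21.5% held the RBPJ letters, 34.5% the CCAAT box, 28.3% the SOX letters, 23.5% the TATA box and 14.0% the TCF/LEF letters. The TCF/LEF and TATA letters are not in either window as spelled.

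The 5 genes whose profile over the 10 arrays was most like that of Fabp7 were Irx6, Tnfsf11, Adra2c, Hey1 and Lratd1. Likeness was the root mean square difference between log2 values centred on each gene's mean, which was 0.624 for Irx6, 0.649 for Tnfsf11, 0.684 for Adra2c, 0.704 for Hey1 and 0.741 for Lratd1, while the Fabp7 profile itself deviated from its mean by 1.29. Tnfsf11 encodes RANKL, the osteoblast-lineage ligand that drives osteoclast formation, Hey1 is a transcription factor induced by Notch, Irx6 is an Iroquois homeobox factor and Adra2c is an adrenergic receptor. Their differences for β-catenin active minus wild type were 2.22, 1.38, 1.54, 1.53 and 1.61 in the order given. As these genes were picked from these data by likeness to Fabp7, positive differences were built in and test nothing. Irx6 and Lratd1 also passed the filter only through their 3 β-catenin active arrays. The other glial members were farther from Fabp7: 1.14 to 1.16 for S100b and 1.03 to 1.29 for Mbp.

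**Figure D2:**
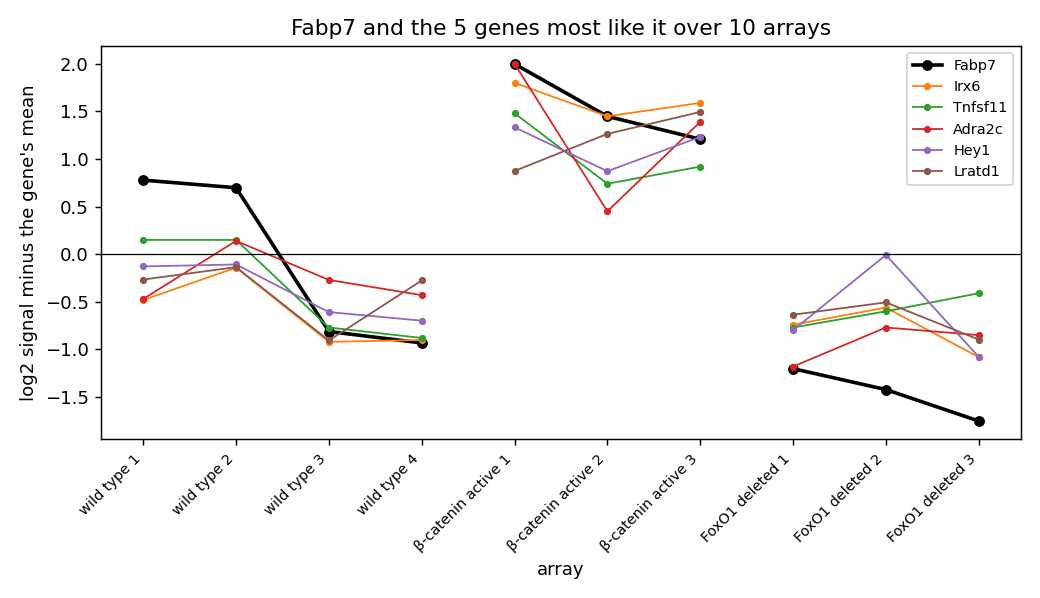
Log2 MAS5 signal, centred on each gene's mean over the 10 arrays, for Fabp7 and the 5 genes with the most similar profile, with arrays along the horizontal axis by genotype. Lines only join values of 1 gene and carry no order; Fabp7 is high in all 3 β-catenin active arrays, low in all 3 FoxO1 deleted arrays, and split between wild type 1 and 2 and wild type 3 and 4.

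S100b had 2 kept probe sets with like profiles, 0.28 apart by the same measure. The brighter gave 9.34, 9.27, 9.72 and 9.46 in the wild-type arrays, 10.68, 10.01 and 10.17 with active β-catenin, and 10.31, 9.77 and 9.10 without FoxO1. All β-catenin active arrays lay above all wild-type arrays, and the FoxO1 deleted arrays overlapped both. The difference for β-catenin active minus wild type was 0.84 ± 0.25 (SE), or 1.79-fold, with a limma adjusted p of 0.169. The second probe set gave 8.10, 8.13, 8.56 and 8.09 in wild type against 9.15, 8.73 and 8.96 with active β-catenin, again without overlap. The FoxO1 deleted minus wild type difference of 0.28 ± 0.25, adjusted p 0.808 by limma, rested on FoxO1 deleted 1, without which it was -0.01. Without FoxO1 deleted 3 it was 0.59.

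Markers of chondrocytes, which also make S100b, were higher in both altered genotypes. All 11 listed were measured, and none passed the limma test. An unadjusted p under 0.05 was reached by 4 with active β-catenin and 11 without FoxO1, against 12.1% and 7.83% of all genes. All 11 were positive against wild type in both comparisons, with medians of 0.69 for active β-catenin and 1.04 for FoxO1 deleted, and 5 and 8 of them lay wholly above wild type, against 7.27% and 4.59% of all genes. Their summed linear signal ran from 13668 to 20363 in wild type, 22729 to 30766 with active β-catenin and 21908 to 59711 without FoxO1. Sox9, the chondrocyte transcription factor, differed by 0.87 with active β-catenin (limma adjusted p 0.084), and Ucma, a cartilage matrix protein, by 1.69 without FoxO1 (limma adjusted p 0.343). The part of these cells in the S100b values was not tested.

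Sox10, the neural crest transcription factor, had no probe set that passed the filter, and nearly all its values lay under the table's median, so they are weak. Of its 3 probe sets, 1 separated the groups and was singled out after its values were seen. It gave 4.14, 4.30, 4.50 and 4.13 in the wild-type arrays, 6.88, 6.10 and 6.38 with active β-catenin, and 5.78, 6.06 and 5.46 without FoxO1, with 0 arrays above 7.15. Both altered genotypes lay above every wild-type array. In a fit of all 34958 single-gene probe sets with no filter, where 0.237% were called for β-catenin active minus wild type and 0.00858% for FoxO1 deleted minus wild type, the β-catenin active difference was 2.19 ± 0.37 (SE) with a limma adjusted p of 0.0376. FoxO1 deleted minus wild type was 1.50 ± 0.37, with an adjusted p of 0.462 by limma. The other probe sets did not show it: the brighter overlapped fully between groups, at 0.25 and 0.52 (adjusted p 0.956 by limma for active β-catenin), and the dimmer was at 0.36 and -0.77.

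Mbp, the major structural protein of the myelin sheath, was dominated by 1 array. Its brightest probe set gave 9.26, 9.09, 8.57 and 8.32 in the wild-type arrays, 11.73, 9.81 and 7.98 with active β-catenin, and 8.52, 9.66 and 8.52 without FoxO1. The β-catenin active arrays held both the highest and the lowest value. β-catenin active 1 was the highest array in 6 of the 8 Mbp probe sets, and in 4 of the 5 kept it exceeded the next array by 1.57 to 2.04. The difference for β-catenin active minus wild type was 1.03 ± 0.67 (SE), with a limma adjusted p of 0.60, and 0.08 without β-catenin active 1. Without β-catenin active 3 it was 1.96. For FoxO1 deleted minus wild type it was 0.09 ± 0.67, with an adjusted p of 0.983 by limma, and -0.29 without FoxO1 deleted 2. One kept probe set ran differently from the others, with 8.23, 8.01, 7.94 and 7.67 in wild type and 7.89, 7.61 and 7.38 with active β-catenin.

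**Figure D3:**
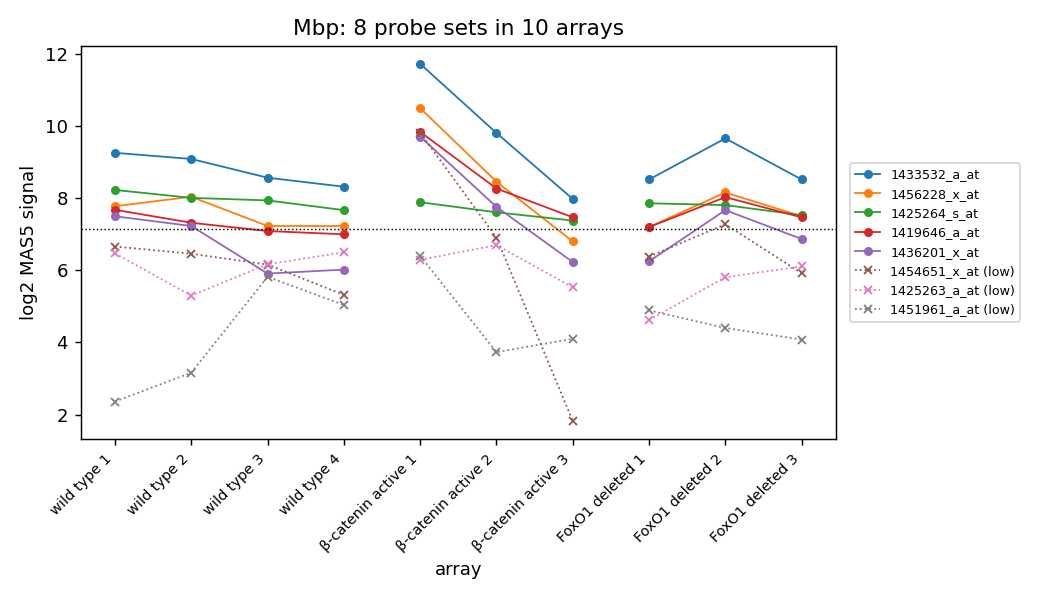
Log2 MAS5 signal of all 8 Mbp probe sets in the 10 arrays, grouped by genotype along the horizontal axis, with the table's median of 7.15 dotted. Lines join values of 1 probe set and carry no order; β-catenin active 1 stands highest in 6 of the 8.

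Described without a test, β-catenin active minus FoxO1 deleted was 0.56 for S100b and 0.94 for Mbp. For Sox10 it was 0.69 in the probe set singled out above, whose values were all under the table's median. The brighter and the dimmer Sox10 probe sets gave -0.26 and 1.13. The Mbp value was -0.01 without β-catenin active 1.

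**Figure D4:**
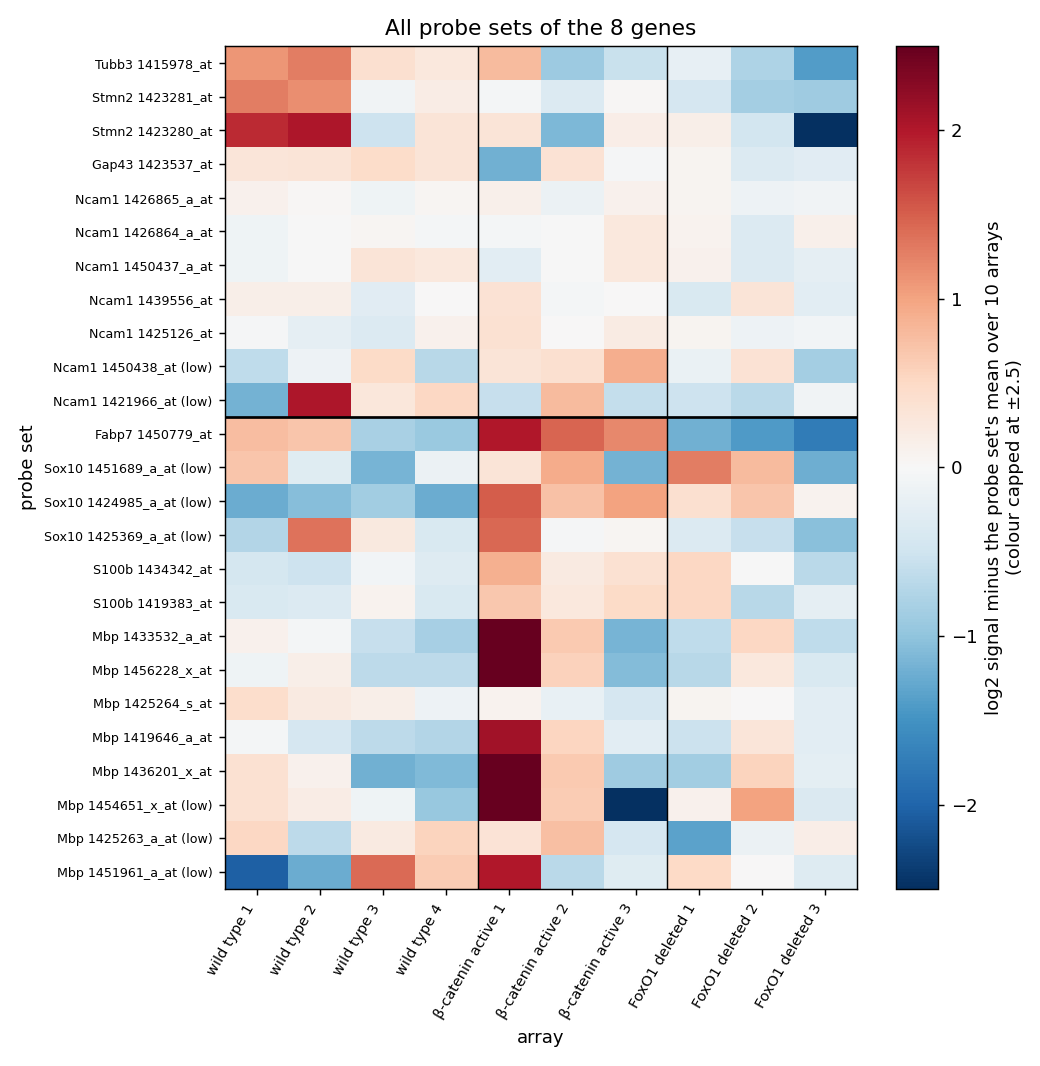
All 25 probe sets of the 8 members as rows and the 10 arrays as columns, coloured by log2 MAS5 signal minus the probe set's mean over the 10 arrays, with colour capped at ±2.5 and "(low)" marking the 8 that did not pass the filter. Fabp7 is above its mean in all 3 β-catenin active arrays and below it in all 3 FoxO1 deleted arrays, and β-catenin active 1 stands out for most Mbp probe sets.

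Of 25 other Schwann cell and myelin genes listed, 10 were in the fit, 10 did not pass the filter (8 of them with no value above the median) and 5 were not analysed here. None of the 10 was called by limma. An unadjusted p under 0.05 was reached by 3 with active β-catenin and 0 without FoxO1, against 12.1% and 7.83% of all genes. With active β-catenin 6 were positive and 4 negative, from -0.33 to 0.75 with a median of 0.20, and without FoxO1 6 and 4, from -0.32 to 0.68 with a median of 0.07. Pmp22, a peripheral myelin protein also made outside nerve, gave 12.35, 12.32, 12.52 and 12.46 in the wild-type arrays, 12.64, 12.88 and 12.56 with active β-catenin, and 12.52, 12.31 and 12.50 without FoxO1. Every β-catenin active array lay above wild type, by a mean of 0.28 ± 0.09 (SE), with a limma adjusted p of 0.226. Mal, a myelin and lymphocyte membrane protein, differed by 0.73 ± 0.30, with a limma adjusted p of 0.348.

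Central glia genes were mostly at low signal, 8 of 12 not passing the filter and 6 of those never above the median. Of the 4 in the fit, 1 was called with active β-catenin, against 0.784% of all genes. An unadjusted p under 0.05 was reached by 2, against 12.1%, and 2 differences were positive and 2 negative. The called gene was Ptprz1, a receptor tyrosine phosphatase of glia that is also made by osteoblasts. It gave 11.55, 11.55, 11.38 and 11.26 in the wild-type arrays, 12.11, 11.83 and 12.09 with active β-catenin, and 11.30, 11.42 and 11.25 without FoxO1. The β-catenin active arrays lay above all others, and the difference from wild type was 0.57 ± 0.10 (SE), with a limma adjusted p of 0.023. A second kept probe set gave 0.45. The call was lost on leaving out β-catenin active 1 or 3 or any single wild-type array, with adjusted p up to 0.106 by limma, and when each similar wild-type pair was averaged (adjusted p 0.229).

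Among 13 genes for fatty acid and retinoid binding proteins, 6 were in the fit, and none was called against wild type by limma. In each comparison 3 had an unadjusted p under 0.05, against 12.1% of all genes for active β-catenin and 7.83% for FoxO1 deleted. Besides Fabp7, differences for β-catenin active and FoxO1 deleted minus wild type were 0.28 and 0.35 for Fabp3, 0.34 and -0.14 for Fabp4, and -0.10 and 0.37 for Fabp5, the muscle, fat and skin members, chosen after their values were seen. Crabp1, a retinoic acid binding protein also chosen after its values were seen, differed by -1.50 without FoxO1 and -0.19 with active β-catenin.

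Melanocytes are another neural crest lineage with Sox10. Of 9 melanocyte genes 3 were in the fit and none was called by limma. An unadjusted p under 0.05 was reached by 1 for active β-catenin and 0 for FoxO1 deleted, against 12.1% and 7.83% of all genes. The pigment genes Dct, Tyrp1, Tyr, Pmel, Mlana and Slc45a2 did not pass the filter, 5 of these 6 without any value above the median. Kit, the stem cell factor receptor of melanocytes, mast cells and blood progenitors, differed by 0.62 ± 0.18 (SE) with active β-catenin, with all arrays above wild type and a limma adjusted p of 0.166. Ednrb, an endothelin receptor, differed by 0.23 (limma adjusted p 0.784).

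Of 20 ligands for nerve growth and axon guidance 14 were in the fit, and 1 was called with active β-catenin, against 0.784% of all genes. An unadjusted p under 0.05 was reached there by 5, the called gene among them, against 12.1% of all genes. Wholly above wild type lay 4, and 2 wholly below, against 7.27% and 6.76% of all genes. Bdnf, Gdnf, Artn and Nrg1 had no value above the median in any array. Sema3e, a secreted semaphorin that steers axons and vessels, was the called gene. It passed the filter only through its 3 β-catenin active arrays, so it had to differ once kept. Its call therefore tests nothing, and its p-values are given as a description. It gave 6.02, 6.40, 6.91 and 6.34 in wild type, all under the table's median, 8.07, 7.89 and 8.12 with active β-catenin, and 6.54, 6.46 and 6.05 without FoxO1. The β-catenin active arrays stood apart from all 7 others, and the difference from wild type was 1.61 ± 0.26 (SE), with a limma adjusted p of 0.018. The call was lost without wild type 1, 2 or 4 or without β-catenin active 1 or 3, with adjusted p up to 0.0802 by limma. Averaging the similar wild-type pairs gave 0.127. FoxO1 deleted minus wild type was -0.07, with an adjusted p of 0.963 by limma.

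**Figure D5:**
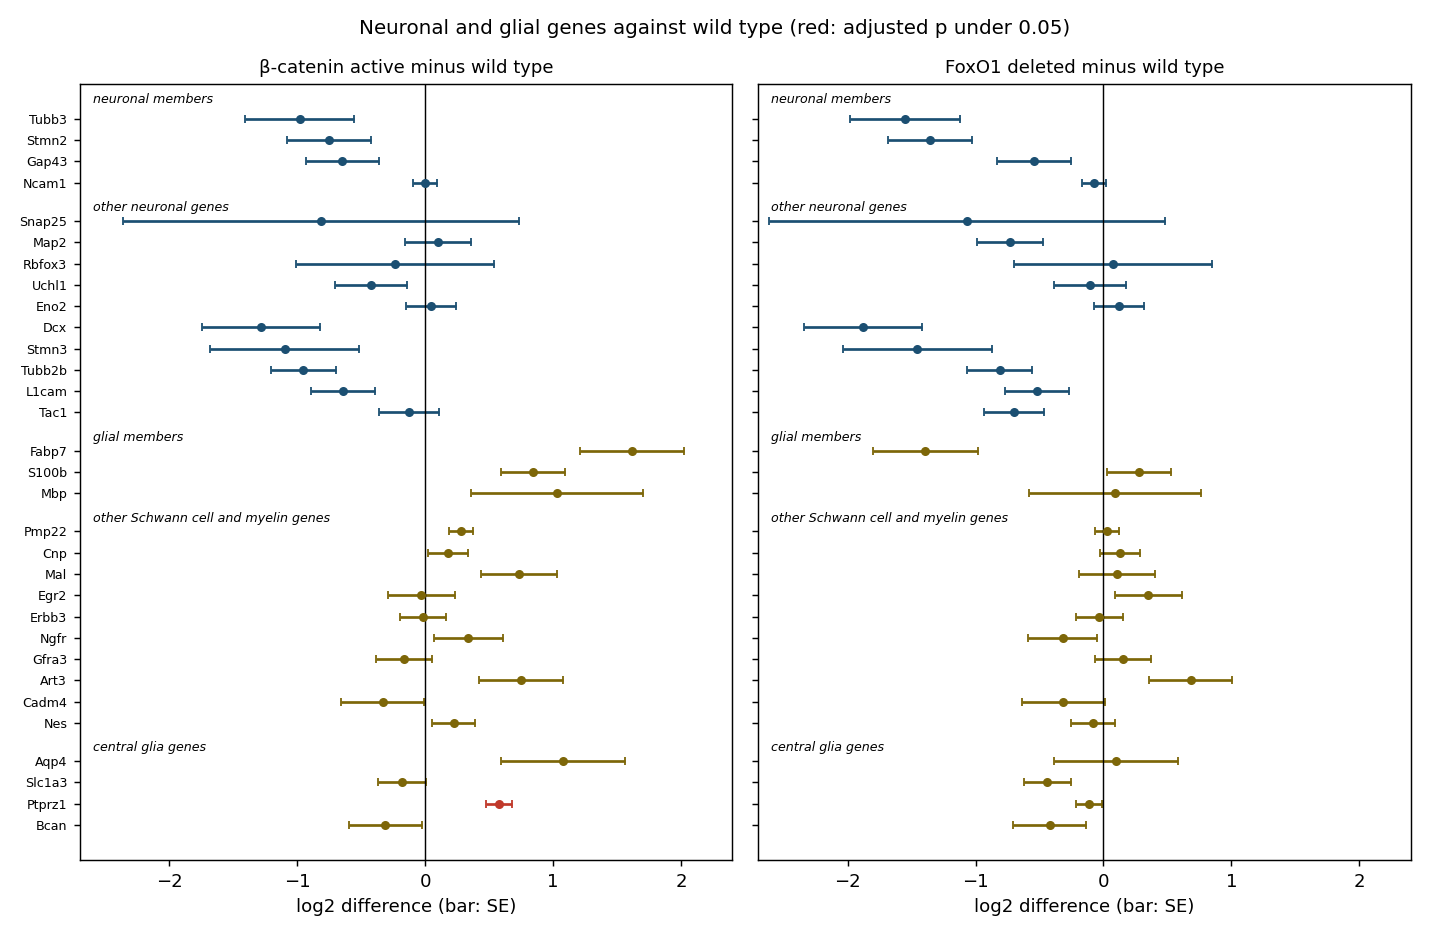
Log2 differences from wild type for every gene in the fit among the members and the other neuronal, Schwann cell and central glia genes, with points for differences and bars for SE, and with active β-catenin and FoxO1 deletion in separate panels. Red marks a limma adjusted p under 0.05, which is Ptprz1 alone, and most neuronal genes lie under 0 in both panels.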

How the data were processed

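The authors deposited log2 MAS5 signal per probe set for 10 arrays hybridised with biotin-labelled cRNA from 500 ng of Trizol-extracted total RNA, per the labels' protocols. The submitters' processing notes name MAS5 and no version. The log2 base was read from the values (-3.86 to 15.86): after trimming 2% at each end, the linear mean was near 500 in every array. Low values were not floored, so a difference between dim probe sets is uncertain. The number of arrays limits the precision.

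Of 45101 probe sets, 34958 had 1 gene in the platform annotation, 932 several and 9211 none, and the gene ID of 99.4% of the first was found in RefSeq's table of GRCm38.p6. The filter left 20127 probe sets and 11357 genes. Limma 3.58.1 in R 4.3.3 fitted 1 mean per genotype to all 10 arrays with a mean-variance trend and no covariates (7 residual degrees of freedom), two-sided. The script was tested on simulated data.

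Each comparison was also fitted under other scaling, filters, probe-set rules and blocks, with each array left out, and, chosen after seeing the data, with terms for Xist signal. The members and lists were chosen with earlier results of these data known. Named genes were all members and, per list, those called (at most 4) or else the 2 with the smallest p, apart from those said to be chosen later.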

Additional observations from a re-analysis of the deposited data

Results flagged for a closer look

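In 25 probe sets of the members, the 4 wild-type arrays were examined for a single array far from the others, and 2 such cases appeared. Gap43 was at 9.41 in wild type 3, with the next array at 9.28. The second S100b probe set was at 8.56 in the same array, with the next at 8.13. The gap to the nearest array was 0.867 and 0.915 of the group's whole range. Chance gives such a gap in about 1 in 20 groups, and both gaps are small on the log2 scale.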

How the results depend on the processing

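With 3 or 4 arrays per genotype, the counts of called genes depended on the settings more than the members' directions did. For β-catenin active minus wild type, 89 genes were called, against 141 with only these genotypes fitted, 9 with similar wild-type arrays averaged, 10 with a term for Xist signal and 35 with Xist class as a block, and 31 to 130 with 1 array left out (31 to 45 when that array was β-catenin active 1 or 3 or wild type). For FoxO1 deleted minus wild type, 3 were called, against 5 with quantile scaling, 5 with no mean-variance trend, 1 with only these genotypes and 0 with similar wild-type arrays averaged (345 at an unadjusted p under 0.05), and 0 to 7 with 1 array left out (1 without wild type 1, 7 without FoxO1 deleted 2, and 0 without FoxO1 deleted 1 or 3, with 1043 and 799 at an unadjusted p under 0.05). For β-catenin active minus FoxO1 deleted, 76 were called, against 25 with only these genotypes, 49 with similar wild-type arrays averaged, 6 with the Xist term and 18 with the Xist block, and 29 to 62 with 1 array left out (45, 30 and 29 without β-catenin active 2, β-catenin active 3 and FoxO1 deleted 1).

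In the replicate block fit the counts were 15, 0 (635 at an unadjusted p under 0.05) and 22. The numbers do not pair the samples: same-numbered arrays had correlations of deviations from -0.261 to 0.236 over 9 pairs, and in 5 of 18 cases an array's best match in another genotype had its own number.

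The neuronal members stayed at 0 calls with any 1 array left out. For β-catenin active minus FoxO1 deleted, where passing the threshold restates how Fabp7 was chosen and tests nothing, the number of glial members past it was 1, and 0 with the Xist term, and the Fabp7 difference was 2.07 with that term. Some directions that turned were of differences near 0. For β-catenin active minus FoxO1 deleted, though, those that turned included 0.57 for Tubb3, 0.60 for Stmn2 and 0.94 for Mbp. For β-catenin active minus wild type, Ncam1 was 0.01 with quantile scaling, 0 with equal medians, 0.08 with the mean of kept probe sets, 0.01 with the replicate block, and -0.05 to 0.08 with 1 array left out. For FoxO1 deleted minus wild type, Mbp was -0.07 with the replicate block and -0.29 to 0.28 with 1 array left out, and S100b -0.01 to 0.59. For β-catenin active minus FoxO1 deleted, Gap43 ran from -0.43 to 0.35 and Mbp from -0.01 to 1.87 with 1 array left out. There the Xist term gave -0.14 for Tubb3, -0.14 for Stmn2 and -0.02 for Ncam1, and the Xist block -0.01 for Tubb3 and -0.01 for Ncam1. Ptprz1 and Thy1 also lost their β-catenin active call with the replicate block and both Xist settings. So did Sema3e, whose call tests nothing, as it was kept only through its β-catenin active arrays. The cause of these changes was not tested.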

Other observations

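Marker lists of other cells that osteoblast preparations can hold were summarised beside the members. Endothelial markers were all measured, 9 of 9, and 8 were higher with active β-catenin than in wild type, 6 without overlap, with a median difference of 0.40. None was called by limma, and 6 had an unadjusted p under 0.05. Over all genes, 7.27% lay wholly above wild type, 6.76% wholly below, and 12.1% had an unadjusted p under 0.05 in that comparison. Their summed linear signal ran from 7707 to 7897 in wild type, 9137 to 10204 with active β-catenin and 8092 to 8325 without FoxO1. Kdr and Eng, receptors of vessel-lining cells, differed by 0.42 (limma adjusted p 0.082) and 0.60 (0.093). The 4 of 6 erythroid markers in the fit were all lower with active β-catenin, with a median of -2.41 and no overlap with wild type. None was called by limma, and all 4 had an unadjusted p under 0.05. Without FoxO1 all 4 were also lower on average, with a median of -1.44, 0 called and 3 at an unadjusted p under 0.05, against 7.83% of all genes. There 0 lay wholly below wild type. Summed linear signal was 1814 in FoxO1 deleted 2, inside the wild-type range of 1146 to 3085, and 378 and 444 in FoxO1 deleted 1 and 3. In these 2 arrays and in each β-catenin active array, 3 of the 4 genes were under the table's median, so the sizes are uncertain. With active β-catenin Klf1 and Ermap, a red-cell transcription factor and a red-cell membrane protein, differed by -2.98 (limma adjusted p 0.153) and -1.84 (0.083).

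Fibroblast markers held 1 called gene of 6: Thy1, a surface protein of fibroblasts and neurons, rose by 0.91 ± 0.17 (SE) with active β-catenin, with a limma adjusted p of 0.037 that did not hold in 7 of the 10 fits leaving out 1 array. Over all genes 0.784% were called in that comparison. Of the 6, 2 had an unadjusted p under 0.05, against 12.1% of all genes. Macrophage markers, 6 of 6 measured, and skeletal muscle markers, 10 of 11 measured, had 0 calls in any comparison by limma (1 macrophage marker and 0 muscle markers had an unadjusted p under 0.05, the former without FoxO1). Summed muscle signal ranged widely within each genotype, from 55047 to 113191 in wild type, where the 6 osteoblast markers summed to 128122 to 141483. Muscle genes were bright, with wild-type means of 14.64 for Acta1 and 12.42 for Myh3. The part of these cells in the values of the nerve markers was not tested.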
